A study of Mus musculus with 4 samples.

Results

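The genes described here encode the mouse proteasome and its helpers, 50 of the 50600 genes listed. They were chosen as all genes whose GENCODE symbol begins with Psm, a letter from a to g and a number, without the 4 symbols marked as pseudogenes by ps. They comprise 7 alpha subunits and 7 standard beta subunits of the core particle, 3 immunoproteasome beta subunits and 2 tissue-restricted core subunits. A further 6 encode ATPases of the regulatory particle, 3 its other base subunits, 8 its lid, 6 activators or inhibitors and 7 assembly factors. The remaining gene, Psmc3ip, matches the pattern by name only and encodes a meiotic recombination factor. RNA came from regulatory T primary cells of strain C57BL/6NJ, in 4 replicate biosamples that form 1 group and share 1 donor record. No genotype change and no treatment is labelled, sex was not collected and age is unknown. A protocol for differentiating CD4+ T cells is linked in the labels, and the name of each aligned file has activated and 48h in it. Which animals or cultures gave the biosamples is not stated, so the spread and the p-values below cover only these biosamples and may be technical.

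The proteasome degrades proteins that carry ubiquitin chains. Its core particle is a barrel of alpha and beta rings in which Psmb5, Psmb6 and Psmb7 cut after hydrophobic, acidic and basic residues, while the regulatory particle binds, unfolds and feeds in the substrate. In lymphocytes and in cells exposed to interferon gamma, Psmb8, Psmb9 and Psmb10 can take the places of Psmb5, Psmb6 and Psmb7 in new particles, and this immunoproteasome supplies peptides to MHC class I molecules.

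Promoter windows are shown for the catalytic pairs Psmb8 with Psmb5 and Psmb9 with Psmb6 and for the activator Psme1, because the levels of these genes are compared below. Each holds 300 bases of RefSeq sequence on GRCm38.p6, from 250 before to 50 after the RefSeq start, along the strand of the gene. Capitals mark matches on either strand to the core letters of the antioxidant response element (TGACNNNGC), the interferon-stimulated response element (GAAANNGAAA) or the interferon gamma activated site (TTCNNNGAA), with at most 1 match per window and so no overlap among them.
Psmb8, chr17:34197945-34198244, plus strand: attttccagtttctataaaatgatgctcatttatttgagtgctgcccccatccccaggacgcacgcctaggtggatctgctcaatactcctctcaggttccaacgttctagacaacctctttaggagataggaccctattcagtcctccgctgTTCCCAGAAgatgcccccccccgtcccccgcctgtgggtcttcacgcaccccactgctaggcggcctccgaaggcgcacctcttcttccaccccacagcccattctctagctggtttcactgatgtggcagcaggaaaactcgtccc
Psmb5, chr14:54617946-54618245, minus strand: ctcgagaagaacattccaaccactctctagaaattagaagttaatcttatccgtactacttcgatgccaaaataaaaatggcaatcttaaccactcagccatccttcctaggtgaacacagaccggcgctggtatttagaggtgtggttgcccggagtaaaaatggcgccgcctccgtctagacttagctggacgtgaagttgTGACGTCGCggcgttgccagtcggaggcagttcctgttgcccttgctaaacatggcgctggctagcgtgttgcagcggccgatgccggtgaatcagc
Psmb9, chr17:34187281-34187580, minus strand: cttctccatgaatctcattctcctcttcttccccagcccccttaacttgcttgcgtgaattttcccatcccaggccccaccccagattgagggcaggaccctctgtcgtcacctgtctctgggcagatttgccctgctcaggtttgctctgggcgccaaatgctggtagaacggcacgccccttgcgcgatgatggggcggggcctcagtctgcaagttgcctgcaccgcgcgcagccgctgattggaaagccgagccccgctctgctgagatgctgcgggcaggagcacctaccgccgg
Psmb6, chr11:70525107-70525406, plus strand: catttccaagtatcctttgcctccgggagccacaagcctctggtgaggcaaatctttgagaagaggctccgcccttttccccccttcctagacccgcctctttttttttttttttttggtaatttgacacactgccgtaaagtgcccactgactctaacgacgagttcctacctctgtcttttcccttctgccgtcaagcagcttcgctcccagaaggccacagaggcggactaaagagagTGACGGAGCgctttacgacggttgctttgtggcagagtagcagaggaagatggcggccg
Psme1, chr14:55578244-55578543, plus strand: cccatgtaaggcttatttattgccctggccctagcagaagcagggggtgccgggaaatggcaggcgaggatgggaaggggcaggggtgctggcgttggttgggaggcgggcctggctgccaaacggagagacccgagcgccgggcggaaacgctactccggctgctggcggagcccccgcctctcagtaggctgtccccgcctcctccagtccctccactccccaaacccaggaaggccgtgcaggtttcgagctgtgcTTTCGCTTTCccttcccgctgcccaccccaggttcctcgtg

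The Psmb8 window held 1 interferon gamma activated site and the Psmb5 and Psmb6 windows 1 antioxidant response core each. The Psme1 window held 1 interferon-stimulated core, on the reverse strand, and the Psmb9 window none of the 3 motifs. The Psmb8, Psmb9 and Psme1 windows lie wholly inside the counted genes, downstream of the gene starts in the deposited annotation. For these genes the bases before those starts were not searched. Windows were found for 42 of the 50 genes, 45 windows in all. The antioxidant core lay in 13.3% of these and in 12.4% of all 32841 promoter windows. The interferon-stimulated core lay in 11.1% of the proteasome windows (those of Psmb3, Psmd4, Psmd9, Psme1 and Psmg4) and 3.44% of all, and the activated site in 6.67% and 8.30%. A GC box (GGGCGG) lay in 53.3% and 35.7%, and the letters CCAAT in 33.3% and 37.4%. A match describes letters in the window and is not a measured binding site.

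The libraries held 43821767, 58696937, 73819468 and 52005209 counts in replicates 1 to 4, of which 336403, 480074, 582056 and 409800 fell on the 50 genes. Levels are given in TPM, the counts of a gene over its summed exon length, scaled to the same total in every library, as mean ± SD over the 4 libraries. All 6 regulatory T cell markers were expressed, from Ikzf2 at 13.2 ± 1.99 to Il2ra at 1487.8 ± 19.4 TPM, with Foxp3 at 289.0 ± 23.5 TPM. Of the CD8 T cell markers, Cd8b1 averaged 11.7 ± 1.75 and Cd8a 0.187 ± 0.0869 TPM. Summed markers lay between 0.347 and 0.547 TPM per library for B cells, 0.0515 and 0.222 for myeloid and dendritic cells, 0.427 and 1.13 for thymic epithelium and 0.204 and 0.526 for germ cells. Of these 4 lists 0 of 3, 0 of 4, 0 of 3 and 0 of 3 genes reached 1 TPM in all libraries, and Lyz2, Foxn1, Krt5 and Sycp3 were at 0 in each. In bulk RNA, fewer cells of a type and less RNA per cell cannot be told apart.

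Proteasome transcripts were abundant, and 48 of the 50 genes reached 1 TPM in all 4 libraries. The exceptions were Psma8, a subunit of testis proteasomes, and Psmb11, a catalytic subunit of cortical thymic epithelium. The 48 genes had a median level of 198.7 TPM, against 28.6 TPM over all 11593 genes expressed by the same rule. Of the 48 genes, 36 (75.0%) averaged at least 100 TPM, against 18.5% of the expressed genes. Together the 50 genes held 1.16%, 1.23%, 1.18% and 1.18% of all TPM in replicates 1 to 4. The median coefficient of variation over libraries was 3.78% in the 48 genes, against 6.52% over all expressed genes and 5.40% over the 8413 of them averaging 10 to 1000 TPM. It was lowest in Psmd7 at 0.887% and highest in Psmc3ip at 9.74%. Apart from the band of 10 to 1000 TPM, levels were not matched, and the part of level in the lower variation was not tested.

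**Figure D1:**
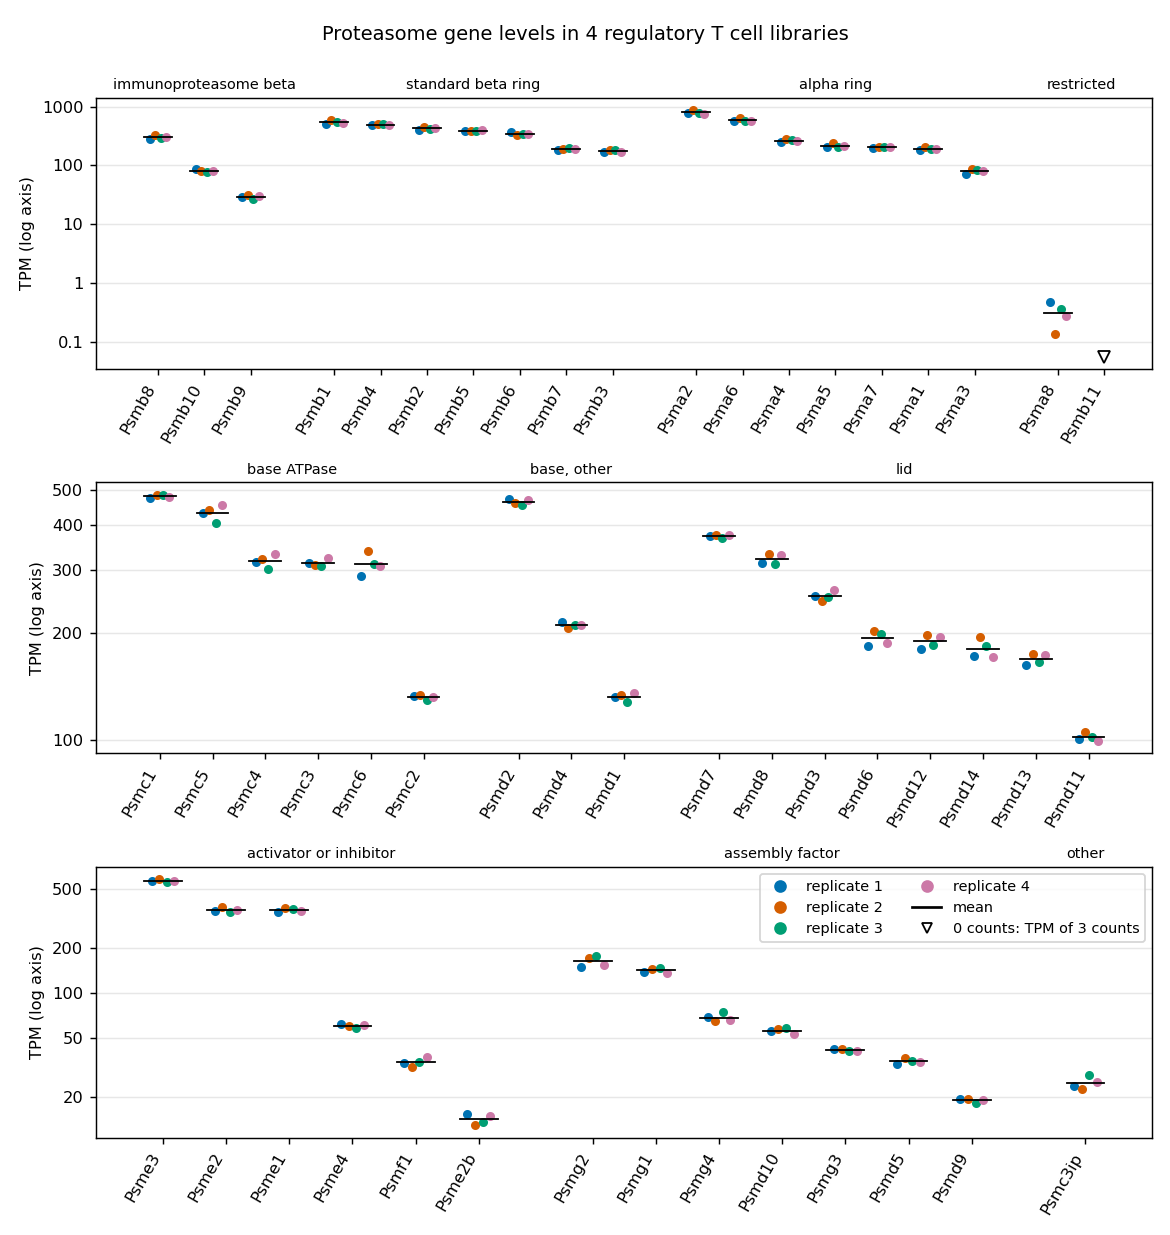
Level of each proteasome gene in TPM (log axis) in each of the 4 libraries (dots, replicates 1 to 4) with the mean (black line), grouped by role. Psmb9 at 29.5 TPM lies below all 7 standard beta subunits, Psma8 lies under 1 TPM, and the open triangle places Psmb11, with 0 counts, at the TPM of 3 counts.

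Among the immunoproteasome subunits Psmb8 was high, Psmb10 intermediate and Psmb9 low, with no overlap between their ranges. Psmb8 (ENSMUSG00000024338.14, chromosome 17, 34197721 to 34201454 in mm10) had 286.5, 325.9, 297.9 and 310.4 TPM in replicates 1 to 4, with a mean of 305.2 ± 16.9. Psmb9 (ENSMUSG00000096727.2, chromosome 17, 34181988 to 34187764) had 29.1, 31.2, 27.2 and 30.7 TPM, with a mean of 29.5 ± 1.79. Psmb10 (ENSMUSG00000031897.9, chromosome 8, 105935735 to 105938444) had 86.5, 82.0, 77.8 and 81.2 TPM, with a mean of 81.9 ± 3.58. Psmb8 and Psmb9 were highest in replicate 2 and Psmb10 in replicate 1. Psmb8 and Psmb9 lie 9956 bases apart on opposite strands, within the MHC region.

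Their standard counterparts were all higher in TPM. Psmb5 (ENSMUSG00000022193.6, chromosome 14, 54614120 to 54617995) had 387.9, 384.7, 385.4 and 403.3 TPM in replicates 1 to 4, with a mean of 390.3 ± 8.75. Psmb6 (ENSMUSG00000018286.6, chromosome 11, 70525367 to 70527858) had 365.4, 334.7, 338.8 and 348.6 TPM, with a mean of 346.9 ± 13.6. Psmb7 (ENSMUSG00000026750.6, chromosome 2, 38588036 to 38644087) had 183.2, 193.7, 200.8 and 191.7 TPM, with a mean of 192.3 ± 7.27. Within each of the 3 catalytic pairs the ranges of the immunoproteasome and the standard subunit did not overlap.

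Psmb9 lay below Psmb6, and Psmb10 below Psmb7, in every library and with each of the 5 lengths tried. The log2 ratio of Psmb9 over Psmb6 in TPM was -3.65, -3.42, -3.64 and -3.51 in replicates 1 to 4, a mean of -3.56 ± 0.11, and Psmb9 stood at 7.95% to 9.31% of Psmb6. Across the other lengths this mean ratio ran from -3.64 to -2.47. The log2 ratio of Psmb10 over Psmb7 in TPM was -1.08, -1.24, -1.37 and -1.24, a mean of -1.23 ± 0.12, and Psmb10 stood at 38.7% to 47.2% of Psmb7. Across the other lengths it ran from -2.41 to -1.14. When the signs of the 4 log2 ratios were flipped in all 16 ways, an exact permutation test, two-sided, gave p = 0.13 for each of the 6 gene pairs tested and 0.13 after Benjamini-Hochberg adjustment. This is the smallest p that 4 libraries allow, so no pair could pass 0.05.

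The order of Psmb8 and Psmb5 depended on the length used. The log2 ratio of Psmb8 over Psmb5 in TPM was -0.44, -0.24, -0.37 and -0.38 in replicates 1 to 4, a mean of -0.36 ± 0.08, so Psmb8 stood at 0.782 ± 0.0461 of Psmb5. The deposited exon length is 2736 bases for Psmb8 and 871 for Psmb5, while their longest coding transcripts in GENCODE M21 have 1628 and 899 bases. With those transcripts the mean ratio was 0.44 ± 0.08, with the coding sequence 1.23 ± 0.08 and with no division by length 1.29 ± 0.08, each positive in 4 of 4 libraries. The counts were 9901, 15375, 17642 and 12795 for Psmb8, against 4267, 5777, 7268 and 5292 for Psmb5. Psmb5 shares 12.5% of its exon bases with Mir686 on the same strand, and the pseudogene Gm3375, itself at 2.51 TPM, matches 88.5% of its transcript at 98.9% identity. The part of these overlaps in the Psmb5 counts was not tested.

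**Figure D2:**
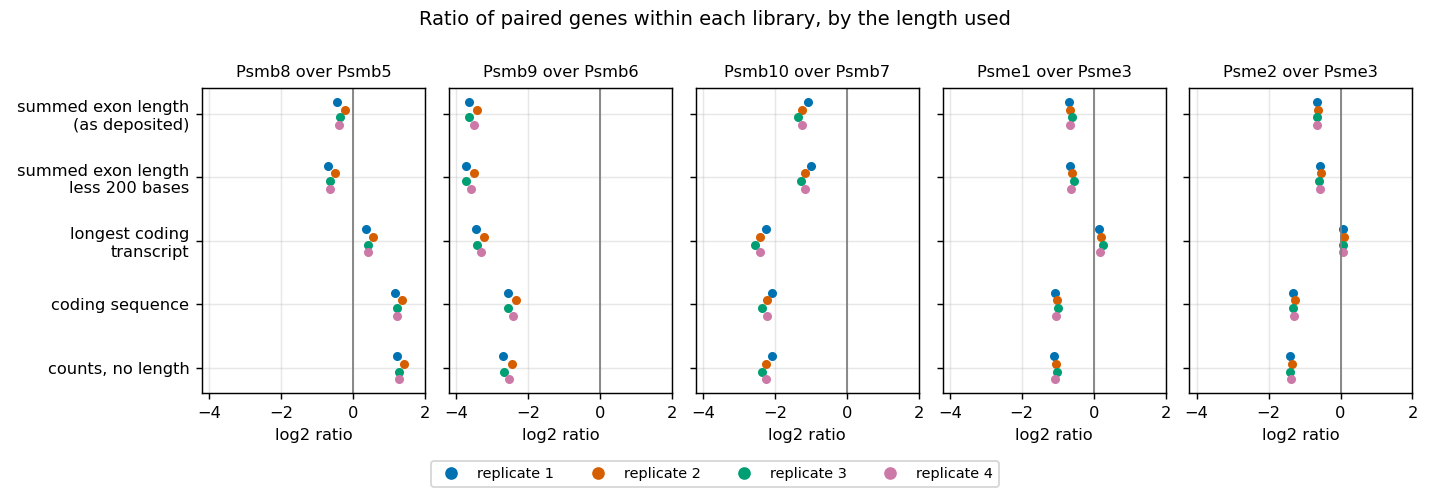
Log2 ratio of paired genes within each library (dots, replicates 1 to 4) for 5 choices of length from top to bottom, with the grey line at 0 for equal levels. Psmb9 over Psmb6 and Psmb10 over Psmb7 stay below 0 with every length, Psmb8 over Psmb5 lies below 0 with both exon lengths and above 0 otherwise, and both Psme ratios lie above 0 only with the longest coding transcript.

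The 3 immunoproteasome subunits made up 30.0%, 32.5%, 30.3% and 30.9% of the summed TPM of the 6 catalytic beta subunits in replicates 1 to 4, highest in replicate 2. The mean was 30.9 ± 1.08% in TPM, 28.4 ± 1.10% with the longest coding transcripts, 38.7 ± 1.29% with the coding sequence and 39.6 ± 1.27% with no division by length. In coding sequence, 68.1% of aligned bases were identical between Psmb8 and Psmb5, 65.3% between Psmb9 and Psmb6 and 63.7% between Psmb10 and Psmb7. None of these pairs is a near-identical copy.

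The tissue-restricted core subunits were at or near 0. Psma8 had 10, 4, 13 and 7 counts in replicates 1 to 4, or 0.468, 0.137, 0.355 and 0.274 TPM, against 196.5, 205.7, 210.5 and 205.2 TPM for its paralogue Psma7. Psma8 thus stood at 0.0666% to 0.238% of Psma7, with a log2 ratio of -9.51 ± 0.78. Psmb11 had 0 counts in all 4 libraries, where 3 counts would equal at most 0.0559 TPM. Against that floor of 3 counts per library, Psmb11 was at least 6935-fold lower than Psmb5 in TPM in every library. Psmb11 and Psmb5 lie only 7314 bases apart on chromosome 14, on opposite strands.

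A standard core particle holds each alpha and beta subunit in equal number, yet the transcripts differed in TPM. Psmb5, Psmb6 and Psmb7 need not equal the others in number where immunoproteasome subunits take their places. Of the 7 alpha subunits, which form the outer rings and the gate, Psma2 was highest with 788.7, 873.2, 779.3 and 758.7 TPM in replicates 1 to 4. Psma3 was lowest with 71.3, 88.7, 82.5 and 80.4 TPM. Psma6 had 568.3, 631.2, 575.3 and 575.3 TPM. All 3 genes were highest in replicate 2. Psma4 averaged 265.0 ± 10.8 TPM and overlapped no other alpha subunit, while Psma5 at 218.4 ± 18.7, Psma7 at 204.5 ± 5.81 and Psma1 at 193.0 ± 10.7 TPM overlapped each other. Per kilobase of the longest coding transcript Psma6 was highest, at 202.7 ± 11.5 CPM, and Psma3 stayed lowest at 32.2 ± 3.13, while with the coding sequence Psma5 was lowest.

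Of the standard beta subunits without catalytic activity, Psmb1 was highest with 502.7, 584.9, 547.7 and 531.0 TPM in replicates 1 to 4, and overlapped Psmb4, which averaged 496.8 ± 14.8. Psmb3 was lowest with 171.6, 180.0, 183.4 and 169.5 TPM, and just reached the range of Psmb7. Psmb2 averaged 427.6 ± 16.2 TPM. The order depends on the length, since Psmb4 led the ring at 238.7 ± 9.32 CPM per kilobase of the longest coding transcript. Psmb1 was lowest there at 83.0 ± 5.97, but its transcript of 1970 bases is longer than the 1036 exon bases counted, which lowers that value. Over the 14 standard core subunits the highest mean, that of Psma2, was 9.91 times the lowest, that of Psma3, in TPM. The ratio was 7.42 with the longest coding transcripts, between Psmb4 and Psma3, and 3.07 with the coding sequence, between Psmb4 and Psma5. Psma2 stood at 2.62 times the median of the 14 in TPM and at 1.35 times with the coding sequence. It stood at 0.486 times that median with the M21 transcript of 2911 bases, which is longer than the 944 exon bases counted.

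**Figure D3:**
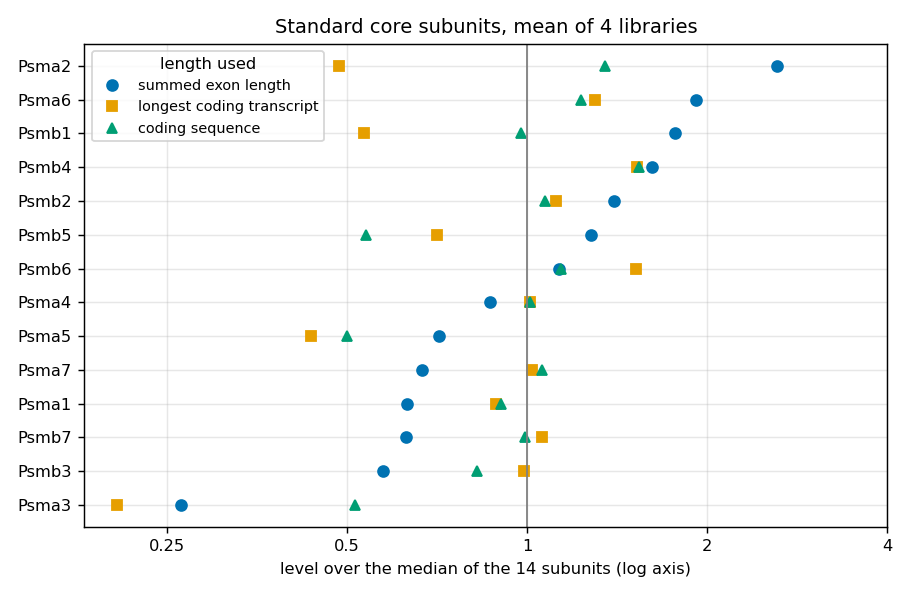
Level of each of the 14 standard core subunits over the median of the 14 (log axis), mean of 4 libraries, with 3 choices of length. Psma1, Psma3, Psma5 and Psmb3 lie below the median and Psma6, Psmb2, Psmb4 and Psmb6 above it with each of the 3 lengths, while Psma2, Psmb1, Psmb5, Psma4, Psma7 and Psmb7 change sides.

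The ATPases of the base, which unfold the substrate, were led in TPM by Psmc1 with 476.6, 484.8, 486.4 and 477.8 TPM in replicates 1 to 4. Psmc2 was lowest in TPM with 132.9, 134.2, 129.5 and 131.9 TPM. In both genes the libraries lay close together and no library was lowest in both. Psmc5 averaged 433.1 ± 20.9 TPM, and Psmc4 at 317.1 ± 12.5, Psmc3 at 313.6 ± 6.99 and Psmc6 at 311.8 ± 20.8 TPM overlapped each other. Both ends of this order turned with length. Per kilobase of the longest coding transcript Psmc4 was highest at 138.7 ± 5.14 CPM and Psmc6 lowest at 63.6 ± 4.75. Psmc1 had 133.8 ± 2.58 and Psmc2 108.4 ± 1.81 CPM there. The transcripts of Psmc6 (2234 bases) and Psmc1 (1591) are longer than the 1564 and 1518 exon bases counted, which lowers these values. Psmc6 was also lowest with the coding sequence and with no division by length. Of the other base subunits, the scaffold Psmd2, which docks ubiquitin shuttle factors, had 472.4, 460.5, 455.5 and 470.1 TPM. The scaffold Psmd1 had 132.3, 134.1, 128.1 and 135.4 TPM and shares 4.14% of its exon bases with Gm21972. Both were lowest in replicate 3, and the ubiquitin receptor Psmd4 lay between them at 210.4 ± 3.28 TPM.

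The lid was led in TPM by Psmd7, the partner of the deubiquitinase Psmd14, with 373.5, 375.0, 367.7 and 374.1 TPM in replicates 1 to 4. Psmd11, which helps to join lid and base, was lowest with 100.8, 105.9, 101.9 and 99.7 TPM. The TPM ranges of these genes did not overlap with any other lid subunit. Per kilobase of the longest coding transcript Psmd3 led at 170.7 ± 4.17 CPM, against 155.2 ± 1.63 for Psmd7, and Psmd11 stayed lowest at 66.6 ± 2.30. With no division by length Psmd3 at 366.6 ± 8.95 and Psmd8 at 286.0 ± 10.6 CPM both lay above Psmd7 at 245.3 ± 2.58. Psmd6 was lowest there at 130.7 ± 7.27 CPM, against 189.8 ± 6.55 for Psmd11. With the coding sequence Psmd12 was the lowest lid subunit. Psmd14, which removes ubiquitin chains from the substrate, had 172.2, 195.0, 183.2 and 171.5 TPM and lay below Psmd7 in every library in TPM. Psmd8 averaged 321.2 ± 11.1 and Psmd3 253.5 ± 7.47 TPM, each apart from the others. Psmd6 at 192.8 ± 8.97, Psmd12 at 189.2 ± 8.11, Psmd14 and Psmd13 at 168.9 ± 5.43 TPM formed a run in which each overlapped the next.

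Psme1 and Psme2, which together form the interferon-inducible activator ring, lay level with each other in TPM. Psme1 (ENSMUSG00000022216.16, chromosome 14, 55578123 to 55581529) had 348.7, 371.3, 365.7 and 353.6 TPM in replicates 1 to 4. Psme2 (ENSMUSG00000079197.10, chromosome 14, 55587441 to 55591113), which lies 5911 bases away on the opposite strand, had 354.6, 377.5, 349.2 and 359.1 TPM. Psme3 (ENSMUSG00000078652.9, chromosome 11, 101316213 to 101323537), which forms a nuclear activator ring of its own, had 559.0, 580.6, 552.7 and 561.6 TPM. The Psme1 and Psme2 ranges overlapped, and both lay below Psme3 in TPM. With no division by length Psme1 at 231.5 ± 8.85 CPM lay above Psme2 at 185.0 ± 7.21. Per kilobase of the longest coding transcript they had 208.2 ± 7.96 and 192.3 ± 7.49 CPM, so their equal level depends on the length.

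The log2 ratio over Psme3 in TPM was -0.65 ± 0.04 for Psme1 and -0.65 ± 0.02 for Psme2. With the longest coding transcripts these ratios turned to 0.20 ± 0.04 and 0.08 ± 0.02, and with the coding sequence they were -1.04 ± 0.04 and -1.30 ± 0.02, so the order depends on the length. Psme2b, a copy of Psme2 with 99.3% identical coding bases, had 164, 187, 246 and 190 counts in replicates 1 to 4 and averaged 14.3 ± 1.21 TPM, the lowest of this role with every length tried. Fragments that align to both copies were not counted, so the values of both are uncertain. Psme4, a large nuclear activator, averaged 60.2 ± 1.61 TPM and Psmf1, named as an inhibitor, 34.4 ± 2.28 TPM.

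The 7 assembly factors had a median level of 55.9 TPM, against 218.4 TPM for the alpha ring and 315.3 TPM for the ATPases. Psmg2, which pairs with Psmg1 to build the alpha ring, was highest in TPM with 149.2, 171.0, 177.2 and 152.9 TPM in replicates 1 to 4. Psmd9, a chaperone of the ATPase ring, was lowest with 19.4, 19.4, 18.4 and 19.3 TPM. Psmg1 averaged 141.4 ± 5.15 TPM, below Psmg2 in each library. This order turned per kilobase of the longest coding transcript, with 53.0 ± 2.37 CPM for Psmg1 and 38.6 ± 3.58 for Psmg2. The Psmg2 transcript of 1300 bases is longer than the 1059 exon bases counted, which lowers that value. With no division by length the order also turned, at 55.4 ± 2.47 CPM for Psmg1 and 50.2 ± 4.66 for Psmg2. With the coding sequence Psmg3 was the highest assembly factor and Psmg4 the lowest. The other alpha ring chaperones Psmg4 and Psmg3 averaged 68.4 ± 4.43 and 41.4 ± 0.494 TPM, and Psmg3 shares 9.68% of its exon bases with Gm26938. The ATPase chaperones Psmd10 and Psmd5 averaged 55.9 ± 2.01 and 34.9 ± 1.26 TPM. Psmc3ip lay between 22.8 and 28.3 TPM.

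No proteasome gene was called different in any library when all 4 were used. Each replicate was set against the other 3 with edgeR's quasi-likelihood test over 12917 genes, 48 of them proteasome genes, with a Benjamini-Hochberg adjusted p under 0.05 as the call. In replicate 1, 0 of 48 were called, against 0.0697% of all genes, and 3 had an unadjusted p under 0.05, against 9.31% of all genes. In replicate 2, 0 were called, against 0% of all genes, and 7 had an unadjusted p under 0.05, against 6.78%. In replicate 3, 0 were called, against 0.0232%, and 0 had an unadjusted p under 0.05, against 2.31%. In replicate 4, 0 were called, against 0%, and 0 had an unadjusted p under 0.05, against 2.49%. DESeq2 called 0 proteasome genes in each, against 0.102%, 0.679%, 0.0227% and 0% of the genes with an adjusted p in replicates 1 to 4. Of 49 proteasome genes it gave 1, 5, 0 and 0 an unadjusted p under 0.05, against 4.51%, 3.64%, 1.06% and 1.15% of all genes.

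Psma3 came nearest to a call in replicate 1, with a log2 difference of -0.24 (SE 0.08) and an adjusted p of 0.3 in edgeR. Without replicate 4 it was called lower there, by -0.27 (SE 0.08) with an adjusted p of 0.029 in edgeR, the 1 call among 48 proteasome genes, in a setting that called 2.59% of all genes. Psmb1 and Psmc6 had the other unadjusted p under 0.05 in replicate 1, both with a log2 difference of -0.15 (SE 0.07). In replicate 2 the 7 genes with an unadjusted p under 0.05 all had positive differences. The log2 difference was 0.23 (SE 0.07) in Psma5, 0.18 (SE 0.08) in Psma3, 0.17 (SE 0.07) in Psma2 and in Psmc6, and 0.15 in Psma1, Psmb1 and Psmd14, with adjusted p from 0.64 to 0.72 in edgeR.

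In TMM-scaled CPM, counts relative to library size, 25 of the 48 proteasome genes (52.1%) had their highest value in replicate 2, against 27.4% of all genes tested. They included 6 of 7 alpha subunits, 7 of 8 lid subunits and 2 of 3 immunoproteasome subunits. The other roles had fewer there, with 3 of 6 activators or inhibitors, 3 of 7 assembly factors, 2 of 6 ATPases, 2 of 7 standard beta subunits and 0 of 3 other base subunits. Of the ATPases 3 of 6 peaked in replicate 4, against 22.2% of all genes tested. Of the standard beta subunits 3 of 7 and of the assembly factors 4 of 7 peaked in replicate 3, against 22.0%. Replicate 1 held the lowest value of 20 of the 48 genes (41.7%), against 29.4% of all genes tested, and of 6 of 7 alpha subunits. The median log2 difference of the 48 genes was 0.045 in replicate 2 and -0.039 in replicate 1, against -0.004 and -0.005 over all genes. Replicate 1 was also the shallowest library, and the part of depth in this was not tested.

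**Figure D4:**
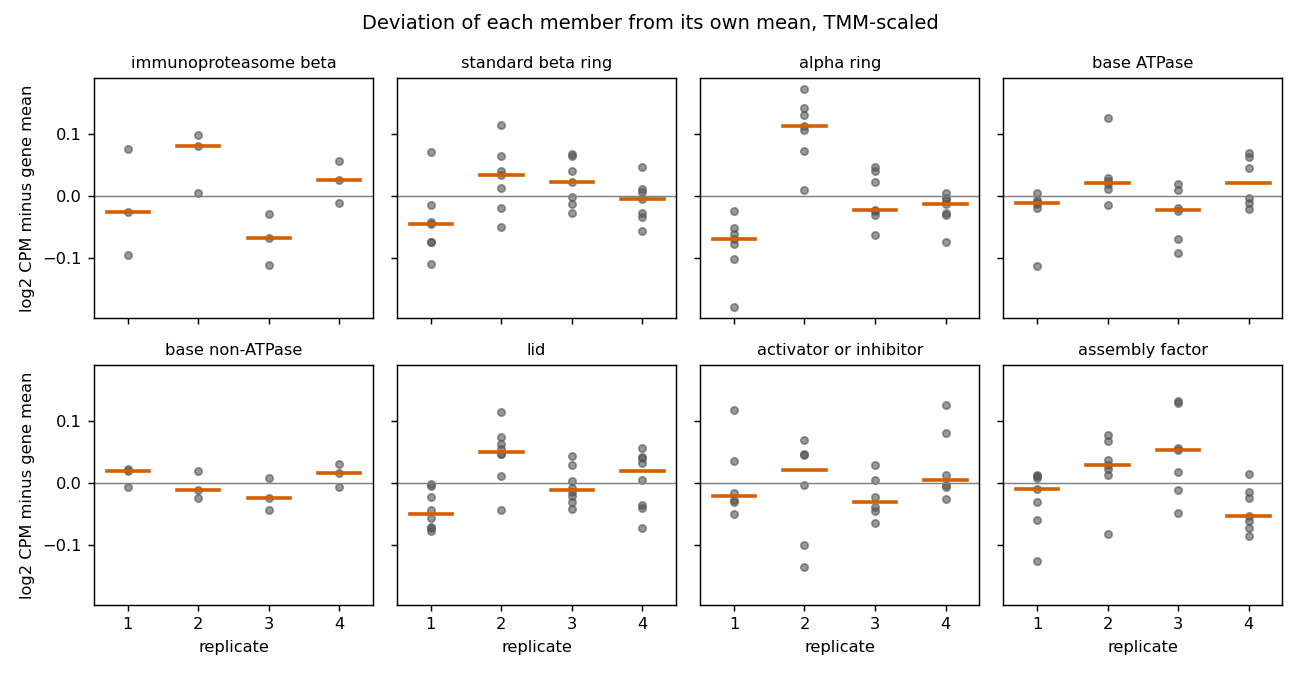
Deviation of each proteasome gene from its own mean over the 4 libraries, in log2 of TMM-scaled CPM, by replicate and role (dots are genes, orange bars the median of a role). The alpha ring median is 0.113 in replicate 2 and -0.069 in replicate 1.

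Subunits and helpers with other symbols were expressed too, 3 of 3 subunits and 4 of the 4 assembly or transport factors found. The ubiquitin receptor Adrm1, its partner deubiquitinase Uchl5 and the small lid subunit Sem1 averaged 93.4 ± 4.85, 107.1 ± 9.08 and 73.0 ± 2.49 TPM. Pomp, which drives maturation of the core, averaged 85.8 ± 2.74 TPM and Akirin2, needed for nuclear import of proteasomes, 81.2 ± 8.53 TPM. The adaptor Ecpas averaged 62.4 ± 1.19 and the proteasome-bound thioredoxin Txnl1 185.2 ± 12.9 TPM.

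All 7 genes of the transcriptional control of the proteasome were expressed, with a median of 52.3 TPM. Nfe2l1, which raises proteasome genes when degradation falls short, was highest with 152.5, 142.5, 149.5 and 155.6 TPM in replicates 1 to 4. Its relative Nfe2l2 averaged 33.6 ± 1.36 TPM and Keap1, which restrains Nfe2l2, 69.3 ± 2.54 TPM. The partners Mafg and Mafk averaged 64.5 ± 1.54 and 52.3 ± 3.56 TPM. Of the enzymes that process Nfe2l1, Ddi2 lay between 38.3 and 40.8 TPM and Ngly1 between 13.3 and 15.6 TPM.

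Of the 6 genes of the interferon arm that induces immunoproteasome subunits, 5 were expressed. The receptor chains Ifngr2 and Ifngr1 lay between 58.1 and 63.7 and between 53.1 and 57.0 TPM. The transcription factor Irf1 averaged 13.8 ± 1.86 TPM. Nlrc5, an activator of class I genes, had 9.15, 8.91, 5.97 and 6.21 TPM in replicates 1 to 4. Ifng had 0.978, 1.57, 0.392 and 0.0513 TPM, from 16, 35, 11 and 1 counts. Both were higher in replicates 1 and 2 than in replicates 3 and 4, as was Psmb10, while Psmb8 and Psmb9 overlapped between these libraries. The 3 subunits were not tested against Ifng or Nlrc5.

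All 5 genes of peptide supply to class I molecules were expressed. B2m, the light chain, averaged 1312.9 ± 60.1 TPM, the peptide transporter chains Tap2 and Tap1 147.6 ± 12.9 and 78.6 ± 4.45, the loading factor Tapbp 115.1 ± 6.97 and the trimming peptidase Erap1 lay between 61.0 and 72.3. Tap1 thus lay above its neighbour Psmb9 in TPM in every library. Of the genes that encode ubiquitin, Rps27a averaged 874.2 ± 61.9 and Ubb 540.6 ± 16.8 TPM.

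Of the 9 proteasome-bound and shuttle factors all were expressed. The shuttle factors Ubqln1 and Rad23b were highest at 228.1 ± 2.86 and 192.8 ± 2.48 TPM. The lowest were the ubiquitin ligase Ube3c at 31.9 ± 6.51, Zfand5 at 31.4 ± 2.88 and Zfand2a at 27.3 ± 1.79 TPM. Ube3c had 36.2, 34.8, 22.2 and 34.3 TPM in replicates 1 to 4, with replicate 3 low. The segregase Vcp, which extracts substrates from complexes and membranes, averaged 303.7 ± 11.9 TPM and its cofactors Nploc4, Faf2, Faf1 and Ufd1 144.3 ± 4.46, 73.3 ± 1.35, 53.1 ± 1.77 and 40.1 ± 2.57 TPM.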

How the data were processed

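RNA of 4 regulatory T cell libraries was measured as counts of fragments per gene. The authors made the deposited counts with featureCounts 1.4.6-p4 on GENCODE M13, paired and reverse-stranded over exons, per the file headers, and the labels name mm10. Multiply aligned fragments were not requested. For the aligner, a version was not given in the sources. The labels call the assay total RNA sequencing, while the linked library protocol is named for polyadenylated RNA.

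Deposited counts were divided by the deposited exon lengths to give TPM. Symbols came from GENCODE M21, for 50376 of 50600 genes. Of 7 gene pairs planned, 6 were tested by their log2 ratio within a library by an exact permutation of its signs, two-sided, since Psmb11 had no counts. Libraries were compared with edgeR 4.0.16 in R 4.3.3 (TMM, filterByExpr), which takes a single library to vary as much as the other 3, and with DESeq2 1.42.0 as an alternative. The test was run on simulated data first: for replicate 1 against the other 3, over 12758 genes, it recovered 62% of 50 genes changed 1.5-fold and 74% of 50 changed 2.0-fold, with 5 false calls. The simulated counts followed the dispersion trend fitted to these libraries, and no change under 1.5-fold was simulated. The recovery of smaller differences was therefore not tested. No pair of libraries agreed within sampling noise (chi-square per degree of freedom 11.1 to 24.4). Floors of 3 counts cover counting error only. DESeq2 gave an adjusted p to 13674, 4122, 22031 and 22031 genes in replicates 1 to 4, so its shares of genes called rest on unequal totals. Near copies were sought with BLAST 2.17.0 and coding sequences aligned with Biopython 1.88.

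Values per library are given for paired genes, for the highest and lowest gene of each role and for genes with a call or an outlying library, for Psme2b as counts. Members and lists were chosen with earlier results of these data known. Paaf1, on the list of assembly and transport factors, was not analysed here, and some genes of the pathway lists are not reported here. Alternatives changed the length, the threshold, the denominator, the scaling, the filter, the test and the libraries used.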

Additional observations from a re-analysis of the deposited data

Results flagged for a closer look

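In 2 of 56 sets of 4 libraries, 1 library lay far from the other 3, and chance flags about 1 in 20 such sets. Psma6, an alpha subunit, had 631.2 TPM in replicate 2, against 568.3, 575.3 and 575.3 TPM in the other 3 libraries. Psmd9, a chaperone of the ATPase ring, had 18.4 TPM in replicate 3, against 19.3, 19.4 and 19.4 TPM in the other 3. Neither gene was called in edgeR or DESeq2.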

How the results depend on the processing

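Of 125 values, 90 stayed the same, 5 reversed and 30 moved. A log2 ratio stayed the same if it kept its sign and otherwise reversed. A share or the core spread moved if it changed by at least the SD over libraries of the main value. A count of genes moved if it left a set fold range around the main count. Psmb8 over Psmb5 reversed to 0.44 with the longest coding transcripts, 1.29 with no division by length and 1.23 with the coding sequence, the last length being chosen after seeing the data. Psme1 and Psme2 over Psme3 reversed to 0.20 and 0.08 with the longest coding transcripts. Lengths alone differ between these values. The immunoproteasome share moved to 28.4%, 29.2%, 39.6% and 38.7% with the longest coding transcripts, the exon length less 200 bases, no length and the coding sequence. The spread over the 14 core subunits moved to 7.42, 11.9, 3.36 and 3.07 in the same order. The share of all TPM was 1.25% over protein-coding genes and 0.7905% of raw counts. Genes called in replicates 1 to 4 numbered 105, 60, 35 and 16 with no filter and 14, 28 and 5 in replicates 1 to 3 by DESeq2, against 9, 0, 3 and 0. Leaving out 1 other library gave 23 to 341, 3 to 52, 16 to 21 and 2 to 9 genes, and 0 to 1 proteasome genes in replicate 1. The cause was not tested. No paired analysis was possible because the 4 libraries form 1 group. Depth limits Psma8, at 4 to 13 counts, and Psmb11, at 0.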

Other observations

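Near copies of proteasome genes had low values. Of the 50 genes, 12 had another annotated gene at 90% or more identity over 50% or more of the principal transcript. Apart from Psme2 and Psme2b, the highest of the copies present in the tables was Gm12989, a processed pseudogene of Psma5, at 5.01 TPM. Gm3375, a copy of Psmb5, averaged 2.51 TPM, A730017L22Rik, which matches Psmd11, 2.61 TPM and Gm6542, a copy of Psma4, 2.22 TPM. Of the copies of Psmb3, Gm4950 averaged 1.84 TPM and Gm6884 0.0188 TPM, beside 176.1 TPM for Psmb3. The 4 pseudogenes left out by symbol reached at most 0.648 TPM in any library. Fragments that align to a gene and its copy are in neither value.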
